A study of Mus musculus with 24 samples.

Results

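Chemokine transcripts were followed in liver-resident invariant NKT (LiNKT) cells of mice given αGalCer/CD1d-NPs. The 5 genes described are Ccl3, Ccl4, Ccl5, Xcl1 and Ccl1, out of 55401 genes in the count tables. They were chosen by name, as chemokine ligands that iNKT cells are known to secrete, and all 5 were found in the tables. Each was described by its reads in single cells, by the regions of changed CG methylation within 50 kb and by the transposase insertions at its promoter.

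Chemokines are small secreted proteins that bind G protein-coupled receptors and draw leukocytes along a gradient. CCL3 (MIP-1α), CCL4 (MIP-1β) and CCL5 (RANTES) draw macrophages, T cells and NK cells among others, CCL3 and CCL5 in part through CCR1. XCL1 (lymphotactin) binds XCR1 on cross-presenting dendritic cells, and CCL1 binds CCR8. In the liver, activated iNKT cells release these ligands within hours of meeting a glycolipid on CD1d, and resting cytotoxic lymphocytes are known to hold Ccl5 and Xcl1 mRNA in advance.

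The cells were live TCRβint lymphocytes that bound αGalCer/CD1d tetramers, sorted from the livers of NOD/ShiLtJ mice, a strain prone to autoimmune diabetes. Treated mice were given nanoparticles carrying mouse CD1d loaded with αGalCer i.v., at 20 µg of protein per dose. They received 2 doses a week for 5 weeks from 8 to 10 weeks of age. Cells were taken 2 to 3 days after the last dose. The paper's methods call the controls of each data type used here untreated. They also describe controls in general as untreated or given Cys-NPs, and a figure legend names vehicle for the multiome. SmartSeq2, which reads full-length RNA of cells sorted one to a well, used 3 male mice of 13 to 15 weeks per group. The multiome chromatin data came from 5 untreated and 4 treated males of the same age, and the bisulfite sequencing from 7 untreated females (17 weeks) and 4 treated mice (16 weeks) whose sex is not stated. The files hold 1 value or 1 set of cells per group for each data type, mice are not separated, and the libraries of the chromatin file (barcodes ending in 1 and in 2) are not named as treated or untreated. No difference between groups below therefore has a replicate check, no test between groups was possible, and intervals (95%, exact) cover counting error at most.

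The CC chemokine genes lie on chromosome 11 (GRCm38). Ccl5 (ENSMUSG00000035042.2) spans 83525778 to 83530518 on the minus strand, Ccl3 (ENSMUSG00000000982.5) spans 83647844 to 83649355 on the minus strand, and Ccl4 (ENSMUSG00000018930.3) spans 83662584 to 83664683 on the plus strand, so that Ccl3 and Ccl4 face away from each other. Ccl1 (ENSMUSG00000020702.13) spans 82176657 to 82179812 on the minus strand, at some distance from the rest. Xcl1 (ENSMUSG00000026573.7) lies on chromosome 1, from 164931644 to 164935527 on the minus strand, and overlaps the noncoding gene Gm20743 of the plus strand. Without strand in the counting, reads from any exon sequence that this pair shares cannot be told apart.

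The DNA at which these loci differed between the data sets is shown first, since the methylation and chromatin results below turn on it. 3 stretches of chromosome 11 near Ccl5, Ccl3 and Ccl4 were less methylated after treatment. Their CpG-rich parts are printed 5′ to 3′ on the plus strand of GRCm38, with every CpG in capitals. Region 1 (chr11:83528091-83528374) lies in an intron of Ccl5, and region 2 (chr11:83534071-83534204) lies upstream of Ccl5. Region 3 (chr11:83628757-83629056) lies in intergenic DNA between Ccl5 and Ccl3.
Region 1: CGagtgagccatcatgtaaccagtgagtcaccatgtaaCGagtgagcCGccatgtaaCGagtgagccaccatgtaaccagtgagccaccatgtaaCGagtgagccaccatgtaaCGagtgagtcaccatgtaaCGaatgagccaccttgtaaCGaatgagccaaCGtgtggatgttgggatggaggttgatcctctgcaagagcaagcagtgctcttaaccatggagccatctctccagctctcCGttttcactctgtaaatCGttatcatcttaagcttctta
Region 2: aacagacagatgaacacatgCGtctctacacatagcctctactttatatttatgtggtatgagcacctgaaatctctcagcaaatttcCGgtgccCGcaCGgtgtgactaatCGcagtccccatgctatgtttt
Region 3: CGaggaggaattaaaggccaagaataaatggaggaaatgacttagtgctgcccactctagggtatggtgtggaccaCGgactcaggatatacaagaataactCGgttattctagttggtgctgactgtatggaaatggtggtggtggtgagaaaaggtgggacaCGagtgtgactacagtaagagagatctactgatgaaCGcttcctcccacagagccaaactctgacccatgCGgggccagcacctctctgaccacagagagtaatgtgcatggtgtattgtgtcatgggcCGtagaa
In region 1 some CpGs were evenly spaced: 3 pairs of neighbouring CpGs were 19 bases apart and 2 pairs were 38 bases apart. The reference marked 29.98% of region 1, 12.6% of region 2 and 6.70% of region 3 as repeats.

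The promoters of Ccl3 and Xcl1 are shown because their insertions differed between the chromatin libraries in opposite directions. They are the 250 bases before each RefSeq start in GRCm38.p6, written 5′ to 3′ on the minus strand, at chr11:83649379-83649628 and chr1:164935523-164935772. Capitals mark the letters TGTGGT or their reverse complement, the core bound by Runx factors.
Ccl3 promoter: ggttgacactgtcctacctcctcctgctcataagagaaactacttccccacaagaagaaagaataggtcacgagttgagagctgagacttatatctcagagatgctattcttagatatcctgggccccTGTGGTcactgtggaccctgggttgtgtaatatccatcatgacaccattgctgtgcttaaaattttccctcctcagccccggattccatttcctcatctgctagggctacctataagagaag
Xcl1 promoter: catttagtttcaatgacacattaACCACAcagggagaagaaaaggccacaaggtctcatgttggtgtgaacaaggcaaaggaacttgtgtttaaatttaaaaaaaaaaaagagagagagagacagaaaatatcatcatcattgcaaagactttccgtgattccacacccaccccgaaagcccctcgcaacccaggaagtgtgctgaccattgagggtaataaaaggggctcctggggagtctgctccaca
The match lay 122 bases before the start in Ccl3 and 227 bases before it in Xcl1, and 14.0% of the 32851 RefSeq promoters held one in the same 250 bases. The Ccl1 promoter, which was also in the sequence table, held instead the letters TGGAAA (NFAT) on the opposite strand, as did 18.6% of promoters. The letters TGANTCA (AP-1), TGACGTCA (CRE) and AGGTGTGA (T-box) were in none of the 3; they were in 6.75%, 1.55% and 1.12% of all promoters. Promoters of Ccl4 and Ccl5 are named only. CpGs were few, with 2 in the Ccl3 promoter, 3 in the Xcl1 promoter and 5 in the Ccl1 promoter, against a median of 6 over all promoters.

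The expression data were 273 untreated and 251 treated cells that carried one of the authors' sub-cluster names (2 to 5). Untreated cells held 172559865 reads (median of 635257 per cell) and treated cells 149084200 (median of 599896). Of 8 iNKT cell markers (Cd3e, Cd3g, Trac, Trbc2, Zbtb16, Il2rb, Cd28, Lck), all 8 were read in both groups, summing to 8399 and 8392 reads per 1000000 (CPM), and 272 of 273 untreated and 238 of 251 treated cells held at least 2. Of the 13 treated cells with fewer than 2, 9 stood apart in holding 2 or more of 9 macrophage or Kupffer cell markers. All 9 were in sub-cluster 2, and no untreated cell held 2 such markers. In treated cells the macrophage list summed to 1944 CPM (6 of 9 markers read, Clec4f, Cd5l and Marco at 0), against 0.0174 CPM among the untreated (3 of 9 read). Results are given with and without these 9 cells where they matter. NK cell or ILC1 markers were also higher in treated cells, with 431 CPM (6 of 7 read, Eomes at 0) and 1668 CPM (7 of 7 read, Eomes in 1 cell). In treated cells they summed to 3019 CPM over the 27 cells with Ccl3 and 2254 CPM over the 168 with Ccl5. Macrophage markers summed to 6004 CPM over the same 27 cells, from 3 of them, and to 0 over the 168. The NK cell or ILC1 sum without the 9 cells was not computed. The part of these markers in the results was not tested. Hepatocyte markers had no untreated read and 97.3 CPM after treatment, in 4 cells.

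Ccl5 was the most abundant of the 5 chemokines in both groups. Untreated cells held 782 CPM (778 to 786) and treated ones 2406 CPM (2399 to 2414), 3.08-fold higher. Reads were found in 153 untreated cells (56.0%, 49.9 to 62.0) and 168 treated cells (66.9%, 60.7 to 72.7), so that the level differed by more than the share of cells. Among cells with reads, the level ran from 1.12 to 5066 CPM with a median of 976 in untreated cells, and from 94.98 to 19098 CPM with a median of 2739 in treated cells. Without the 9 cells with macrophage markers, none of which held Ccl5, the treated level was 2491 CPM.

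Ccl4 was found in few untreated cells and in more of the treated ones. It was at 103 CPM (101 to 104) in 16 of 273 untreated cells (5.86%, 3.39 to 9.34) and at 489 CPM (485 to 492) in 63 of 251 treated cells (25.1%, 19.9 to 30.9), 4.76-fold higher. Cells with reads held a median of 811 CPM (8.22 to 6294) before and 1326 CPM (80.5 to 12979) after treatment. The intervals of the shares did not overlap, but how often this held over all genes was not computed, and cells are not replicates. Of the reads, 1 cell held 26.7% in the untreated and 15.4% in the treated group.

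Ccl3, the neighbour of Ccl4 on the chromosome, was the rarer of the pair. It was at 34.8 CPM (34.0 to 35.7) in 6 untreated cells (2.20%, 0.811 to 4.72). In 27 treated cells (10.8%, 7.21 to 15.3) it was at 151 CPM (149 to 153), 4.34-fold higher. A single cell held 36.3% of the untreated reads, and another 12.9% of the treated ones. The level in a positive cell was not higher after treatment, with a median of 1924 CPM over the 6 untreated cells and 1154 CPM over the 27 treated cells, and the difference lay in the number of cells with reads.

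Xcl1 did not follow Ccl3, Ccl4 and Ccl5. It was at 145 CPM (143 to 147) in 87 untreated cells (31.9%, 26.4 to 37.8) and at 127 CPM (125 to 129) in 67 treated cells (26.7%, 21.3 to 32.6), a ratio of 0.877, and the intervals of the shares overlapped. The median in positive cells was 312 CPM before and 304 CPM after treatment. The cell names carry a number after the run name, 1 or 2, called the lane here, and the direction of the small difference was not the same in both. In lane 1 Xcl1 was lower after treatment (158 and 112 CPM), and in lane 2 it was higher (121 and 160 CPM).

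Ccl1 was read in 1 untreated cell alone, of sub-cluster 2, with 1034 reads (1230 CPM in that cell). No treated cell held a read, which at 3 counts allows a share of cells with a read of up to 1.20% of the 251 cells (exact upper limit 1.46%).

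Of the 5 genes, Ccl3, Ccl4 and Ccl5 were at least 2-fold higher in treated cells (log2 ratios of 2.09, 2.24 and 1.62 with a prior of 1 CPM). None of the members read in both groups was 2-fold lower; Ccl1, from its single cell, passed that fold. For comparison, 20.1% of 15052 genes with at least 10 summed reads were at least 2-fold higher and 17.2% at least 2-fold lower, with a median log2 ratio of 0.02 over all of them. Of the 4886 genes detected in 5% or more of either group's cells, 7.94% were at least 2-fold higher. All 3 were higher in both lanes. Ccl5 was at 729 and 2362 CPM in lane 1 and at 882 and 2503 CPM in lane 2, in untreated and treated cells respectively. Ccl4 was at 125 and 382 CPM in lane 1 and at 60.9 and 719 CPM in lane 2. Ccl3 was at 35.9 and 127 CPM in lane 1 and at 32.8 and 204 CPM in lane 2.

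On a scale of CPM per kb of exon, on which genes can be compared with each other, untreated cells ranked Ccl5 (1470), Xcl1 (277), Ccl4 (155), Ccl3 (45.5) and Ccl1 (9.78). In treated cells the order was Ccl5 (4523), Ccl4 (740), Xcl1 (243), Ccl3 (197) and Ccl1 (0). Ccl4 and Xcl1 thus changed places. Counting intervals of neighbouring genes did not overlap in either order, while the spread between mice is unknown.

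Cells were next compared within the authors' sub-clusters, which rest on gene expression, possibly that of these genes too, and are therefore a description only. Untreated cells were mostly of sub-cluster 2 (228 cells) with 43 of sub-cluster 4 and 2 of sub-cluster 3; treated cells were 61 of sub-cluster 2, 133 of sub-cluster 4 and 57 of sub-cluster 5. Sub-cluster 4 held most of the chemokine reads of treated cells: 92.9% of Ccl5, 96.8% of Ccl4, 93.6% of Ccl3 and 92.8% of Xcl1 reads. Sub-cluster 5 held 1.55% of the Ccl5 and 1.65% of the Ccl4 reads and none of the others. This is where most Il10, a regulatory cytokine, was read: 1384 CPM, against 155 CPM in sub-cluster 2 and 5.44 CPM in sub-cluster 4 of treated cells. Median depth was alike in sub-clusters 4 and 5, at 650536 reads in untreated sub-cluster 4, 610978 in treated sub-cluster 4 and 664117 in sub-cluster 5. In sub-cluster 2 it was 632246 reads in untreated cells and 535694, the lowest of all, in treated cells.

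Within sub-cluster 4, Ccl5 was read in all 43 untreated cells and in 129 of 133 treated cells. Its level was 2231 CPM before and 4226 CPM after treatment, 1.89-fold higher. Ccl4 was at 573 CPM in 13 of 43 untreated cells (30.2%, 17.2 to 46.1) and at 894 CPM in 56 of 133 treated cells (42.1%, 33.6 to 51.0). Ccl3 was at 117 CPM in 4 of 43 (9.30%, 2.59 to 22.1) and at 267 CPM in 24 of 133 cells (18.0%, 11.9 to 25.6). The intervals of the shares of both genes overlapped between the groups here. With 43 untreated cells in place of 273 they were also wider, so this is no contrast with all cells together. Xcl1 was lower in treated cells of this sub-cluster, at 350 CPM in 28 of 43 untreated cells (65.1%, 49.1 to 79.0) and 223 CPM in 60 of 133 treated cells (45.1%, 36.5 to 54.0), although these intervals overlapped as well.

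In sub-cluster 2, Ccl5 was read in 110 of 228 untreated cells (48.2%) at 502 CPM and in 26 of 61 treated cells (42.6%) at 601 CPM. Without the cells with macrophage markers it was in 26 of 52 treated cells (50%, 35.8 to 64.2) at 709 CPM, so that the order of the shares turned. Xcl1 was read in 59 of 228 untreated cells (25.9%, 20.3 to 32.1) at 106 CPM and in 7 of 61 treated cells (11.5%, 4.74 to 22.2) at 41.5 CPM. Leaving out the cells with macrophage markers, Xcl1 was in 7 of 52 treated cells (13.5%, 5.59 to 25.8) at 49.0 CPM. Of the Ccl4 in treated sub-cluster 2, all 4 cells with reads were among the 9 with macrophage markers, and without these Ccl4 was in 0 of 52 cells. Ccl3 was then left in 1 of 52 cells, against 2 of 228 untreated cells. Setting these cells aside for the whole treated group left Ccl4 in 59 of 242 cells (24.4%) at 498 CPM and Ccl3 in 25 of 242 cells (10.3%) at 153 CPM.

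In sub-cluster 5, Ccl5 was read in 13 of 57 cells (22.8%, 12.7 to 35.8) at 150 CPM and Ccl4 in 3 cells at 32.4 CPM. Ccl3, Xcl1 and Ccl1 were in none of the 57 cells, which at 3 counts allows a share of cells with a read of up to 5.26% for each (exact upper limit 6.27%). Had the untreated levels of sub-clusters 2 and 4 been weighted by the reads of these sub-clusters in treated cells, with sub-cluster 5 at 0, Ccl5 would stand at 1292 CPM, Ccl4 at 306 CPM, Ccl3 at 66.1 CPM and Xcl1 at 208 CPM. For the CC chemokines these values lie between the untreated and treated levels, and for Xcl1 the value lies above both.

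**Figure D1:**
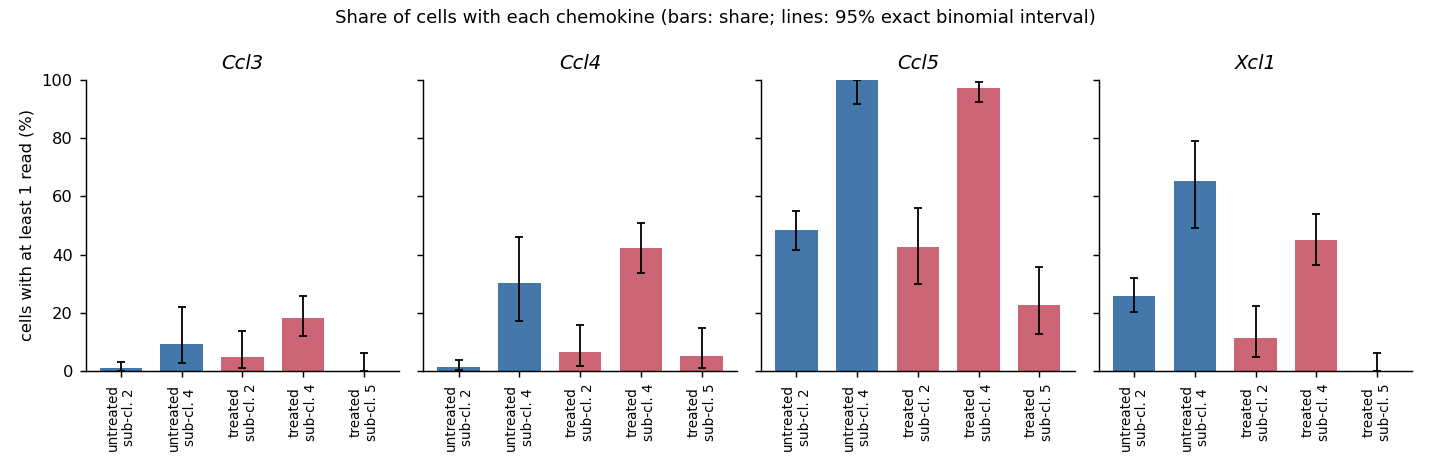
Share of cells (percent, vertical axis) with at least 1 read of each chemokine, in untreated (blue) and treated (red) cells of each sub-cluster; lines are 95% exact binomial intervals. Ccl5 reached 100% and 97.0% of the cells in sub-cluster 4, and Ccl3 and Xcl1 were in none of the 57 cells of sub-cluster 5.

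**Figure D2:**
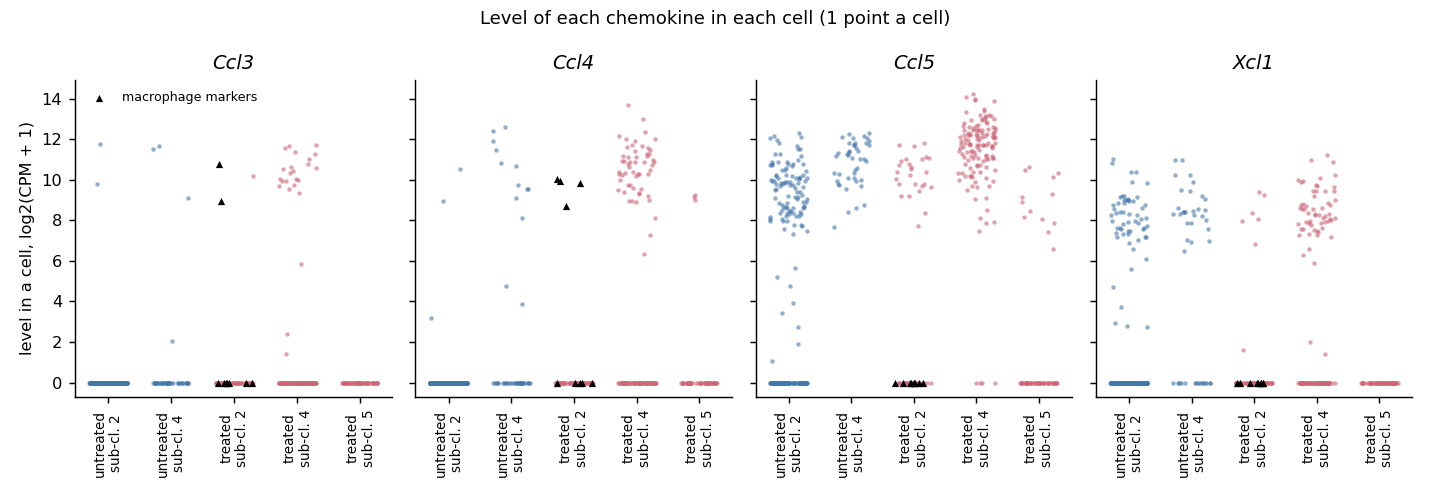
Level of each chemokine in each cell, as log2(CPM + 1), by group and sub-cluster, with 1 point a cell (the 2 cells of sub-cluster 3, with no chemokine read, are not drawn) and black triangles for the 9 treated cells with macrophage markers. All 4 cells with Ccl4 in treated sub-cluster 2 are triangles, and the highest Ccl5 levels, up to 19098 CPM, are in treated sub-cluster 4.

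The chemokines were found together in part. Of the 27 treated cells with Ccl3, 18 also held Ccl4 (66.7%), while 20.1% of the treated cells without Ccl3 held Ccl4. In untreated cells the same pair was read in 3 of the 6 Ccl3 cells, and Ccl4 in 4.87% of the others. Seen from Ccl4, 28.6% of its 63 treated cells held Ccl3, so that most Ccl4 cells had no Ccl3 read. Within treated sub-cluster 4 alone, 17 of 24 Ccl3 cells held Ccl4 (70.8%), against 35.8% of the cells without Ccl3. Thinning each cell to 100000 reads left the share of treated cells with both at 6.45%, from 7.17%.

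Ccl5 was read in 24 of 27 treated cells with Ccl3 (88.9%, against 64.3% of those without it) and in 57 of 63 with Ccl4 (90.5%, against 59.0%), and in every untreated cell with either of them. Within treated sub-cluster 4, where nearly every cell held Ccl5, it was also in 96.3% of the cells without Ccl3 and 94.8% of those without Ccl4. Of the cells with Xcl1, 64 of 87 untreated (73.6%) and 65 of 67 treated ones (97.0%) held Ccl5, and within sub-cluster 4 these were 28 of 28 and 59 of 60. Xcl1 was in 6 of 27 treated cells with Ccl3 (22.2%) and in 27.2% of those without it, and within treated sub-cluster 4 in 6 of 24 and in 49.5%. In untreated cells it was in 4 of 6 cells with Ccl3, against 31.1% of the others. Cells with Ccl4 held Xcl1 more often in both groups, at 75% against 29.2% of untreated cells and 39.7% against 22.3% of treated cells; within treated sub-cluster 4 the shares were 44.6% and 45.5%. In all, 40 of 251 treated cells (15.9%) held 3 or more of the 5 genes, against 16 of 273 untreated cells (5.86%), and 29.1% and 35.5% held none. Within sub-cluster 4 the shares with 3 or more were 30.1% of treated and 27.9% of untreated cells, and within sub-cluster 2 they were 0 and 1.75%.

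Il10 and Il21, cytokines that restrain or help other lymphocytes, were mostly in other cells. No treated cell with Ccl3 or Xcl1 held Il10 or Il21, and of the 32 cells with Il10, 6 held Ccl5 and 2 held Ccl4. Il4, which promotes antibody responses, was in no treated cell with Ccl3, Ccl4 or Xcl1 and in 7 treated cells with Ccl5 (4.17%, against 21.7% of those without it). In untreated cells it was in 7 of 87 cells with Xcl1 (8.05%, against 9.68% of the others) and in 11 cells with Ccl5. Of the 133 treated cells of sub-cluster 4, with or without these chemokines, 0 held Il4, 1 held Il10 and 1 held Il21. Gzma, a granule protease, showed the reverse: all 99 treated and all 11 untreated cells with Gzma held Ccl5, and 45 of 63 treated Ccl4 cells (71.4%) held Gzma, against 28.7% of those without Ccl4. Within treated sub-cluster 4, which held 93 of the 99 Gzma cells, these shares were 80.4% and 62.3%, and those for Xcl1 were 71.7% and 68.5%. Ifng was in 9 of 27 treated Ccl3 cells (33.3%) and in 19.6% of the treated cells without Ccl3. For untreated Ccl3 cells it was in 1 of 6, against 19.1%. Xcl1 cells held Ifng in 29.9% of cases, against 13.98% of the others, in the untreated group, and in 7 of 67 cases (10.4%), against 25% of the others, in the treated group.

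The genes most alike in pattern were sought by Pearson's r of log2(CPM + 1) over the 524 cells, after subtracting the mean of each group, among 2095 genes read in at least 10% of cells; cells share their library and depth, and the values are descriptions. For Ccl5 they were Cd7 (r = 0.52), Gzma (0.48), Gzmb (0.46), Klre1 (0.43) and Klrk1 (0.38), a T and NK cell surface protein, granzymes and NK receptors. Ccl4 went with Gzma (0.41), Cd7 (0.35), Gzmb (0.33), Ccl5 (0.32) and Fcer1g (0.30), an adaptor of activating receptors. Ccl3 was most like Ccl4 (0.34), followed by Gzma (0.24), Tyrobp (0.22), Ccl5 (0.18) and Fcer1g (0.17). Xcl1 was most like Cd7 (0.33), Ccl5 (0.30), Gzmb (0.29), Ctsw (0.27), a cathepsin of cytotoxic lymphocytes, and Gm20743 (0.25), which it overlaps. Most of these values were smaller within treated sub-cluster 4 alone (133 cells). There r was 0.22 for Ccl5 with Cd7, 0.14 with Gzmb and 0.09 with Klrk1, 0.11 for Ccl4 with Fcer1g, 0.01 for Ccl3 with Fcer1g and 0.09 for Xcl1 with Gzmb, while Ccl5 with Gzma was at 0.41 and Xcl1 with Ctsw stayed at 0.27. The r between Xcl1 and Ccl5 there was -0.04 and that between Xcl1 and Ccl3 was -0.21.

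The counts of genes past 2-fold in this and the following lists stand beside 20.1% of all genes higher and 17.2% lower, and nothing particular to a list is read from them. Other chemokine ligands were all but absent. Of 33 other genes of the Ccl, Cxcl, Xcl and Cx3cl families in the tables, 25 had no read, 8 had at least 10 reads and none was in 5% of the cells of either group. 6 of the 8 were at least 2-fold higher in treated cells and none lower, but in few cells. They were Ccl6 (6 treated cells), Cxcl2 (6), Ccl9 (2), Cxcl16 (2), Ccl2 (1) and Ccl25 (1), named here after their values were seen. Of these cells, 4 with Ccl6, 5 with Cxcl2, both with Ccl9, 1 with Cxcl16 and the one with Ccl2 were among the 9 cells with macrophage markers.

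The receptors Ccr1, Ccr3, Ccr4, Ccr8 and Xcr1 were rare in the sorted cells, each read in at most 4 cells of a group. Ccr3 and Ccr4 were at least 2-fold higher in treated cells and Ccr8 and Xcr1 at least 2-fold lower, while Ccr1 had fewer than 10 reads.

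Among 12 secreted cytokines, 11 had at least 10 reads; 4 were at least 2-fold higher (Il4, Il10, Il21 and Il2, of which 1 treated cell held 99.6% of the reads and which was in 8 untreated and 3 treated cells) and 3 lower (Tnf, Lta, Tnfsf11, of which Lta and Tnfsf11 were in at most 4 cells), with a median log2 ratio of 0.12. Ifng, the signature cytokine of liver iNKT cells, was at 136 and 192 CPM. Tnf was read in 19 untreated cells (126 CPM) and 9 treated cells (54.0 CPM). Of 6 cytotoxic granule genes, 4 were at least 2-fold higher (Gzma, Gzmb, Gzmk, Prf1) and none lower, with a median log2 ratio of 1.30. Gzma was read in 11 untreated cells (143 CPM) and 99 treated cells (3904 CPM).

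Of 15 genes induced by T cell receptor signals, 7 were at least 2-fold lower in treated cells (Cd69, Egr1, Fos, Jun, Junb, Nr4a3, Tnfaip3) and 3 higher (Egr2, Egr3, Irf4, in at most 7 treated cells each), with a median log2 ratio of -0.81. Egr1 was read in 127 untreated cells (978 CPM) and 69 treated cells (206 CPM). Fos was at 1955 CPM before and 720 CPM after treatment. Of 10 regulators known to act on chemokine genes, 9 had at least 10 reads. Batf and Maf were at least 2-fold higher, Klf13 and Nfatc2 lower. Maf was at 28.6 CPM in untreated cells, at 7.68 CPM in treated sub-cluster 4 and at 462 CPM in sub-cluster 5. Batf was at 100 CPM in untreated cells, at 176 CPM in treated sub-cluster 4 and at 282 CPM in sub-cluster 5. Klf13, a zinc finger factor known to drive late Ccl5 expression in T cells, was at 96.5 and 47.3 CPM. Tbx21 (T-bet) was at 463 and 432 CPM and Runx3 at 66.7 and 68.5 CPM.

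Methylation was compared with the regions and single-cytosine fractions that the authors deposited. The regions had been called from the difference between these same groups. The shared direction of the CpGs in a region therefore follows from that choice and is a description only. 3 of the 5 genes (Ccl3, Ccl4 and Ccl5) had a hypo-methylated region within 50 kb of the gene body, as did 8.81% of 55450 annotated genes and 11.2% of the protein-coding ones, and none of the 5 had a hyper-methylated one, as did 5.02% of genes. The genes share a locus and are not separate observations, since 1 region served both Ccl3 and Ccl4. Within the gene body or 2 kb of the start site only Ccl5 had a region. Xcl1 and Ccl1 had none within 100 kb.

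Region 1, of 407 bases in the Ccl5 intron, was highly methylated in both groups. Its mean over 24 cytosines was 0.884 ± 0.056 in untreated and 0.719 ± 0.067 in treated cells (SD over cytosines, not replicates). Means are over cytosines of CpGs; over all cytosines that the table lists in each region, most of them outside CpGs, the differences were -0.022 in region 1, -0.053 in region 2 and -0.049 in region 3. Of the 24 cytosines, 23 were lower and 1 higher in treated cells; averaged over strands, all 12 CpGs were lower, with differences (treated minus untreated) from -0.11 to -0.245.

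Region 2, of 381 bases, began 3.39 kb from the Ccl5 gene, upstream of its start. Its mean over 12 cytosines was 0.546 ± 0.121 in untreated and 0.162 ± 0.090 in treated cells, and all 7 CpGs with a value were lower. The least methylated CpG after treatment was at 0.27 and 0.03.

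Region 3, of 373 bases, lay 18.7 kb from the 3′ end of Ccl3, 33.5 kb upstream of Ccl4 and 98.2 kb from Ccl5. Its mean over 16 cytosines was 0.711 ± 0.117 in untreated and 0.352 ± 0.133 in treated cells. All 8 CpGs were lower, with differences from -0.265 to -0.52, and the largest difference was at chr11:83628859, from 0.66 to 0.14. The deposited site table is nearly limited to the called regions (99.7% of its positions on chromosomes 1 and 11 lay in one), so that methylation at the start sites of the 5 genes was not analysed here, and read depth at the sites is unknown.

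**Figure D3:**
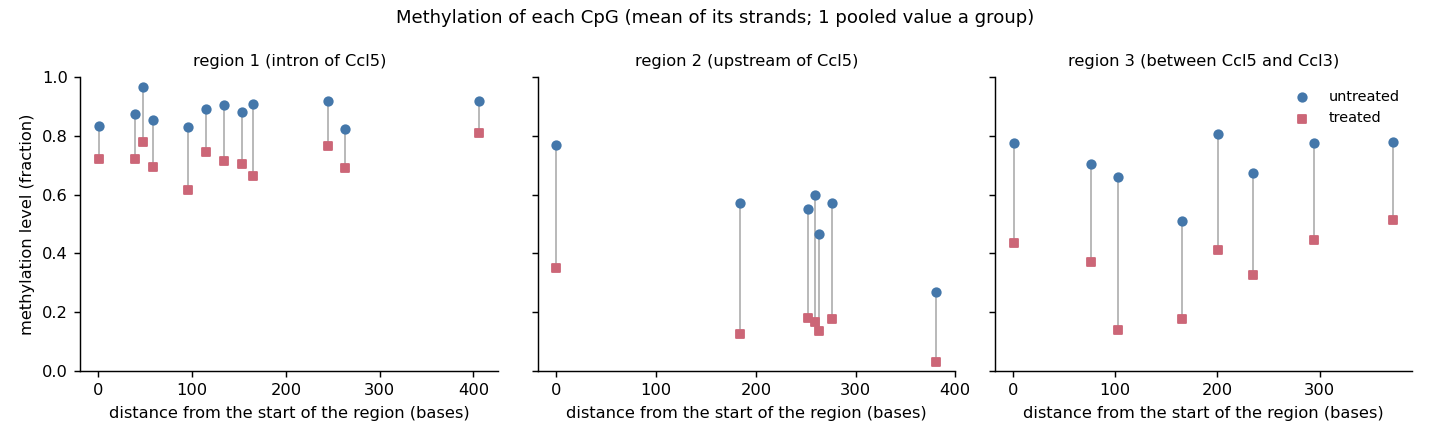
Methylation level (fraction, vertical axis) of each CpG in the hypo-methylated regions, against its distance in bases from the start of the region, for untreated (blue circles) and treated cells (red squares), joined by a grey line. All 27 CpGs are lower in treated cells, in regions that were called from this difference, with the smallest gaps in region 1.

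Chromatin was compared between the libraries of the multiome fragment file, which pools the groups and marks them by barcode ending. Barcodes with at least 1000 fragments were used: 8565 ending in 1 (162817764 insertions) and 7237 ending in 2 (149740716 insertions), with a median of 7104 and 8591 fragments. 100 barcode sequences passed this limit with both endings. Insertions within 2 kb of the start site are given per 1000000 insertions of the library (IPM). Both ends of a fragment are counted as if independent and can fall in the same window. The intervals of IPM are therefore too narrow even for counting error. The endings are not tied to a treatment here, so the values say only where the libraries differed.

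The Ccl3 promoter had 7.33 IPM (6.92 to 7.76) in ending 1 and 18.1 (17.4 to 18.8) in ending 2, 2.47-fold more. The Ccl4 promoter had 15.4 (14.8 to 15.97) and 28.8 (27.9 to 29.6), 1.87-fold more. The Ccl5 promoter had 19.2 (18.5 to 19.9) and 25.4 (24.6 to 26.2), a ratio of 1.32. The Xcl1 promoter went the other way, with 40.0 (39.0 to 41.0) and 27.8 (26.9 to 28.6), a ratio of 0.695, and the Ccl1 promoter had 11.3 and 9.28. Ccl3 and Ccl4 were thus the 2 of 5 past a ratio of 1.5 in the direction of ending 2, as were 17.8% of 48458 promoters; 11.2% had at least 1.5 times fewer, and none of the 5 did in this window, although over its gene body Xcl1 was at a ratio of 0.618. The median log2 ratio over all promoters was 0.02.

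In neither library was the order of the 5 genes by insertions the same as their order by RNA. Per promoter window, Xcl1 had the most insertions in ending 1, Ccl4 and Xcl1 the most in ending 2, with overlapping intervals, and Ccl1, read in 1 cell of 524, had more insertions than Ccl3 in ending 1. The 5 windows had more insertions than 72.0% (Ccl1) to 83.7% (Xcl1) of all promoters. Ccl3, Ccl4 and Xcl1 had their highest bin between 150 and 250 bases upstream of the start. Ccl5 had its highest bin 4.75 kb upstream of the start (8.30 and 11.4 IPM in 100 bases), beyond region 2, and Ccl1 its highest 3.65 kb upstream (7.93 and 4.94).

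**Figure D4:**
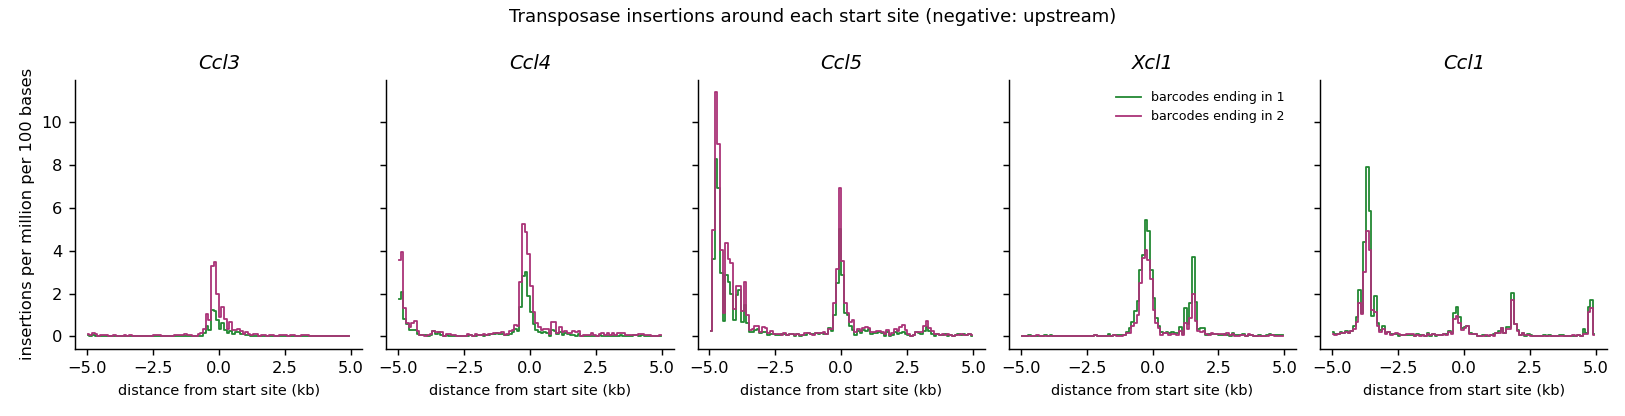
Insertions per 1000000 insertions of the library (IPM) in bins of 100 bases (vertical axis) against the distance from each start site in kb, negative being upstream, for barcodes ending in 1 (green) and 2 (purple). Ccl3 and Ccl4 are higher in ending 2, Xcl1 is higher in ending 1, and the highest bins of Ccl5 and Ccl1 lie 4.75 and 3.65 kb upstream.

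By nuclei, an insertion in the Ccl3 window was found in 5.84% of the nuclei ending in 1 and 14.2% of those ending in 2, and in the Xcl1 window in 26.5% and 19.9%. With nuclei of at least 5000 fragments thinned to 5000 (5410 and 5046 nuclei), the shares were 4.03% (3.52 to 4.59) and 8.11% (7.37 to 8.89) for Ccl3, 7.36% (6.67 to 8.08) and 12.3% (11.4 to 13.2) for Ccl4, 9.33% (8.57 to 10.1) and 11.7% (10.8 to 12.6) for Ccl5 and 18.3% (17.3 to 19.4) and 12.9% (12.03 to 13.9) for Xcl1. For Ccl1 they were 5.73% (5.13 to 6.38) and 4.60% (4.04 to 5.21). How often such intervals separate over all promoters was not computed, so nothing is read from their overlap. Nuclei of 1 library are not replicates. Nuclei under 5000 fragments were left out.

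Insertions at the Ccl3 and Ccl4 promoters were found in the same nuclei more often than in the rest. In ending 2, the Ccl4 window held a fragment in 19.6% (15.8 to 23.7) of the 409 nuclei with one at Ccl3 and in 11.7% (10.8 to 12.6) of the others. In ending 1 these shares were 16.1% (11.4 to 21.6) and 6.99% (6.31 to 7.72). For Ccl3 and Xcl1, on different chromosomes, the shares went the same way. The Xcl1 window held a fragment in 20.05% (16.3 to 24.3) of the nuclei with Ccl3 and in 12.3% (11.4 to 13.3) of the others in ending 2. In ending 1 the shares were 23.4% (17.9 to 29.6) and 18.1% (17.1 to 19.2), whose intervals overlapped. For nuclei with and without Ccl4, the Xcl1 shares were 18.5% (15.5 to 21.8) and 12.2% (11.2 to 13.2) in ending 2, and 19.1% (15.4 to 23.3) and 18.3% (17.2 to 19.4) in ending 1. The Ccl5 window held a fragment in 18.2% (15.2 to 21.5) of the nuclei with Ccl4 and 10.8% (9.86 to 11.7) of the others in ending 2, and in 14.3% (11.03 to 18.2) and 8.94% (8.16 to 9.76) in ending 1. No doublet caller was run on the barcodes, and the part of droplets with more than 1 nucleus in these shares was not tested.

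The hypo-methylated regions differed in their insertions too, and how often other such regions did was not computed. Region 3 had 4.33 IPM per kb (3.82 to 4.89) in ending 1 and 20.3 (19.1 to 21.5) in ending 2, 4.68-fold more, against 0.484 and 1.68 in the surrounding 10 kb. Region 3 therefore stood out from its surroundings in both libraries, and these surroundings were higher in ending 2 as well. Region 2 had 7.42 and 12.7, a ratio of 1.72, with 8.40 and 10.8 around it, and region 1 had 1.81 and 4.09 with 2.91 and 3.72 around it. In ending 2, region 3 held a fragment in 9.82% (7.60 to 12.4) of the 621 thinned nuclei with one at the Ccl4 promoter and in 3.797% (3.25 to 4.40) of the others. It held one in 7.82% (5.41 to 10.9) of the nuclei with Ccl3 and 4.25% (3.69 to 4.87) of the others, and in 7.04% (5.20 to 9.28) of the nuclei with Xcl1, on another chromosome, and 4.17% (3.59 to 4.80) of the others, so that this was not particular to its neighbours. For nuclei with one at the Ccl5 promoter the shares were 5.43% (3.75 to 7.58) and 4.42% (3.84 to 5.07), whose intervals overlapped. With the Il21 promoter they went the other way, at 1.18% (0.383 to 2.72) and 4.85% (4.25 to 5.51). With the Il10 promoter they were 3.53% (2.20 to 5.34) and 4.67% (4.07 to 5.33), whose intervals overlapped. The direction seen with Il21 was the same at the promoters of Ccl3 (4% and 8.48%), Ccl4 (6.35% and 12.9%) and Ccl5 (7.06% and 12.1%). At Xcl1, on another chromosome, the shares were 4.94% and 13.7%, so that this was not particular to region 3. For region 2 they were 4.71% and 4.05%. In ending 1, region 3 held a fragment in 0 of the 34 nuclei with Il21 and in 1.00% of the others.

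**Figure D5:**
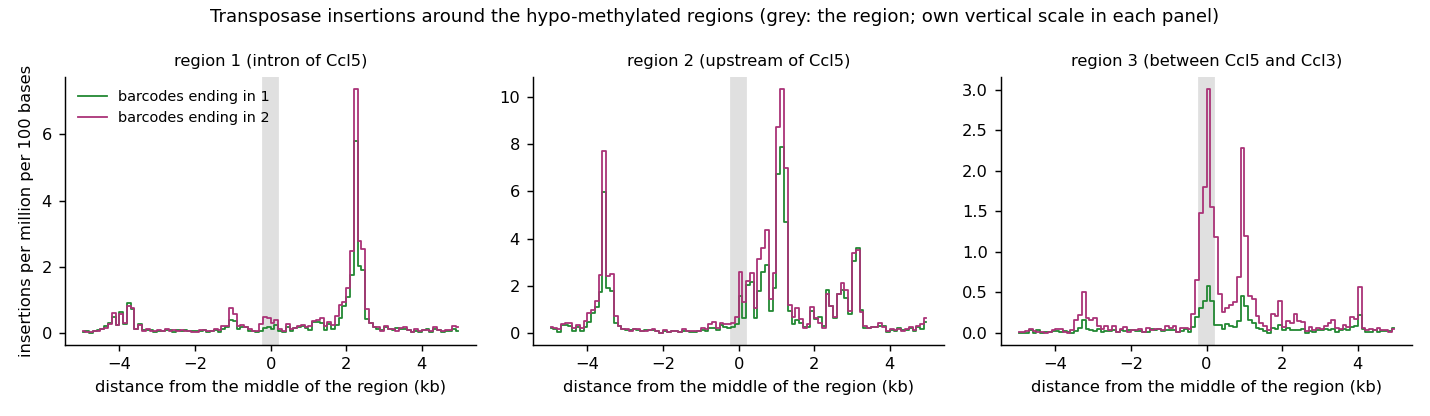
IPM in bins of 100 bases (vertical axis, with its own scale in each panel) against the distance in kb from the middle of each hypo-methylated region (grey band), for barcodes ending in 1 (green) and 2 (purple). Region 3 coincides with a maximum that is higher in ending 2; summed over each region, the ratios are 4.68 for region 3, 2.26 for region 1 and 1.72 for region 2.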

How the data were processed

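SmartSeq2 counts are reads per gene and cell as deposited by the authors (aligned with STAR to GRCm38, no normalization, no molecular identifiers). Cells named in the sub-cluster annotation supplied with the study (used for names only) were summed per group and scaled to CPM. Methylation fraction values per cytosine and per region, and the q-value of each region, are the authors' (BSMAP on mm10, regions by metilene, replicates of a group pooled by the authors); the deposited column of differences between groups was not used. Chromatin counts are fragments deposited by the authors from Cell Ranger ARC, and each fragment end was taken as an insertion; doublets were not removed. Insertion and read shares have exact Clopper-Pearson intervals, sums exact Poisson intervals. Nothing gives separate mice, so that a group is 1 sample. Genes follow GENCODE M21, with the body as the span of basic transcripts, and sequences are from RefSeq GRCm38.p6 (3 of 5 promoters matched). Python 3.11.15 with scipy 1.17.1 was used, and the steps across all genes were tested on simulated data. Alternatives covered cell filters, scaling, lanes, thinning, region distance, the q-value, all cytosines in place of those in CpGs and chromatin windows. The text names the 5 genes, genes of the lists of chemokines, receptors, cytokines, induced genes, granule genes and regulators, and the 5 genes most alike per member. Values are given for only some of the list genes in 5% of the cells of a group. A list gene without values was therefore not necessarily below that share. A gene of the receptor list is not reported here. The genes and lists were chosen with earlier results of these data known.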

Additional observations from a re-analysis of the deposited data

Results flagged for a closer look

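The 11 untreated and 31 treated cells without a sub-cluster entered no comparison of the report and were used only in the alternative with all cells. Ccl3 was at 60.1 CPM in 3 of the 31 treated cells and in none of the 11 untreated ones, and Ccl5 at 435 CPM in 12 of the treated and 241 CPM in 6 of the untreated cells. Both were looked at again because their level in treated cells outside the comparisons was above that in the matching untreated cells. Ccl4 (71.8 CPM untreated, 4.20 CPM treated) and Xcl1 (95.7 and 17.3 CPM) were lower in these treated cells, and the share of cells with Ccl5 was 54.5% in the untreated and 38.7% in the treated ones.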

How the results depend on the processing

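The number of chemokines at least 2-fold higher in treated cells stayed at 3 of 5 under all 9 alternatives, of which the removal of cells with macrophage markers and the restriction to cells with 2 or more iNKT cell markers were chosen after seeing the data. The number with at least 1.5 times more promoter insertions in ending 2 stayed at 2 of 5 under all 4, whereas the number with at least 1.5 times fewer went from 0 to 1 (Xcl1, log2 ratio -0.70) over the gene body. The number with a hypo-methylated region was 3 at 50 kb, 100 kb and a q-value of 0.01, 2 at 25 kb and 1 within the gene body or 2 kb of the start site, where fewer regions are in reach by construction. Over all cytosines of the table instead of those in CpGs, the methylation differences went from -0.165 to -0.022, from -0.384 to -0.053 and from -0.359 to -0.049 in regions 1 to 3. The log2 ratio of Xcl1 turned from -0.19 to 0.40 in lane 2 alone, and the cause was not tested. No paired analysis was possible because each group is 1 sample. Mice are not separated, reads are not molecules, the depth behind methylation values is unknown, and the chromatin libraries carry no treatment name, so that counting intervals are too narrow for any statement about mice.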
